A study of Mus musculus with 6 samples.

Results

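The conventional MAPK genes examined were *Mapk3*, *Mapk7*, *Mapk8*, *Mapk9*, *Mapk10*, *Mapk11*, *Mapk12*, *Mapk13* and *Mapk14*, 9 of the 53379 genes in the deposited table, chosen by gene name. They fall into 4 branches: ERK (*Mapk3*, the gene of ERK1), ERK5 (*Mapk7*), JNK (*Mapk8*, *Mapk9* and *Mapk10*, for JNK1, JNK2 and JNK3) and p38 (*Mapk14*, *Mapk11*, *Mapk12* and *Mapk13*, for the alpha, beta, gamma and delta forms). ERK is represented by *Mapk3* alone, so its values stand for that gene and not for the whole branch. Neural stem cells (NSCs) were derived from cortices of E14.5 mouse embryos carrying *Tbl1xr1* flox/flox in every group and were grown as neurospheres with bFGF and EGF. Cells infected with GFP only gave the 3 control libraries (replicates 1, 1_1 and 2), and cells infected with Cre gave the 3 Cre-labelled libraries (replicates 2, 2_2 and 3). The virus was a lentivirus and GFP-positive cells were sorted before use, and the promoter driving Cre was not given in the sources used here. The floxed colony was kept in part by backcrossing to C57BL/6 mice, and the sources used here say no more of the background of the embryos. The labels do not say whether libraries came from separate cultures, so p-values measure the spread between these libraries, which may be technical.

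A MAPK is the last kinase of a chain in which a MAP3K phosphorylates a MAP2K, and the MAP2K phosphorylates the MAPK on a threonine and a tyrosine of its activation loop. ERK is known for relaying growth factor signals such as those of EGF and FGF, ERK5 responds to growth factors and stress, and JNK and p38 are known for responses to stress and cytokines. In neural progenitors these kinases are known to act in proliferation, survival and differentiation. Activity of the kinases rests on phosphorylation, and the RNA values below measure only the abundance of their messages.

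The branches can be read in part from their coding sequences. The stretches below run from the DFG to the APE codons around the activation loop in GENCODE M1 transcripts, 5′ to 3′. The 3 codons in capitals (threonine, a middle residue, tyrosine) are the target of the MAP2Ks. They are shown because they set the JNK genes, the p38 genes and the pair of *Mapk3* and *Mapk7* apart. They do not separate ERK from ERK5. The middle codon encodes glutamate in *Mapk3* and *Mapk7*, proline in the 3 JNK genes and glycine in the 4 p38 genes.
Mapk3: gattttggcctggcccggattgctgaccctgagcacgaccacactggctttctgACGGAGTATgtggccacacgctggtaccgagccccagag
Mapk7: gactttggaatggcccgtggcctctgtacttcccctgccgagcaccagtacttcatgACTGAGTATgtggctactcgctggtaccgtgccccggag
Mapk8: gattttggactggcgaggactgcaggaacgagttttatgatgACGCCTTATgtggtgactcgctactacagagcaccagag
Mapk12: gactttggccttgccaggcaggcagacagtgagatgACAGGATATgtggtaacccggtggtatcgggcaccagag
Mapk14: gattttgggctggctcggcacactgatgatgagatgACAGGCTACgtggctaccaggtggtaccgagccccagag
The stretch was 93 bases long in *Mapk3*, 96 in *Mapk7*, 81 in each JNK gene and 75 in each p38 gene. Aligned coding sequences were 75.5% to 75.9% identical among the JNK genes and 65.3% to 70.4% identical among the p38 genes. No 50-base stretch of a member's protein-coding transcripts (0%) occurred in the same orientation in a protein-coding transcript of another gene. Noncoding transcripts, pseudogenes and the opposite strand were not searched, so unique assignment of reads is shown only within that set. In *Mapk7*, 89 bases of the annotated exons overlap *Mfap4* on the opposite strand, which this search could not find. The library kit does not mark strand, so reads there cannot be told apart.

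The deposited values are normalized counts, that is reads on a gene divided by 1 size factor per library. The libraries held 7510615 to 11161497 reads on genes in control and 11893230 to 14828100 in those labelled Cre. *Tbl1xr1* itself, summed over the whole gene, stood at 2522, 2190 and 2721 normalized counts in control (replicates 1, 1_1 and 2 in this order) and at 3774, 3463 and 2905 with Cre (replicates 2, 2_2 and 3). It was thus not lower in the Cre libraries (log2 fold change 0.45, SE 0.14, limma adjusted p = 0.060). A count over the whole gene does not measure the floxed exon and cannot check the deletion, and the group is therefore called by its label throughout. The paper reports its own checks of the sorted cells, by genotyping and for loss of *Tbl1xr1* mRNA and protein. Summed NSC markers ran from 39033 to 43169 normalized counts in control and from 39452 to 42008 in the Cre-labelled libraries. Of the 8 NSC markers 1 passed the test, *Nes*, which fell. Their fold changes were positive for 5 and negative for 3, with a median log2 fold change of 0.23. At an unadjusted p of 0.05, 2 were higher and 2 lower with limma and edgeR, and 3 higher and 2 lower with DESeq2. Every Cre-labelled library was above every control for *Pax6*, *Slc1a3* and *Notch1*, and below for *Nes* and *Vim*. Of all tested genes, 30.3% had groups that did not overlap in either direction and 9.96% passed the test. The sum thus covers markers with fold changes of both signs.

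Among the 9 genes, *Mapk12* and *Mapk3* were lower in the Cre-labelled libraries, and 0 were higher by limma, edgeR or DESeq2 (0 also at an unadjusted p of 0.05). *Mapk12* fell to 0.482 of its control mean and *Mapk3* to 0.676. The other 6 tested genes, among them all 3 JNK genes, *Mapk7* and the p38 genes *Mapk11* and *Mapk14*, did not pass the test, and *Mapk13* was too low to be tested. Of the 14840 genes tested, whose normalized counts averaged 10 or more, 9.96% passed an adjusted p of 0.05 in either direction and 5.22% passed it as lower, beside 2 of the 8 tested members. The median log2 fold change was -0.13 over the 8 members and -0.001 over all tested genes. The groups did not overlap for 3 members, *Mapk3*, *Mapk11* and *Mapk12*, each lower in every library labelled Cre than in any control, whereas the groups did not overlap for 30.3% of all tested genes and were apart in this direction for 15.5%. These are bulk samples, in which fewer cells of a type and less RNA per cell cannot be told apart.

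**Figure D1:**
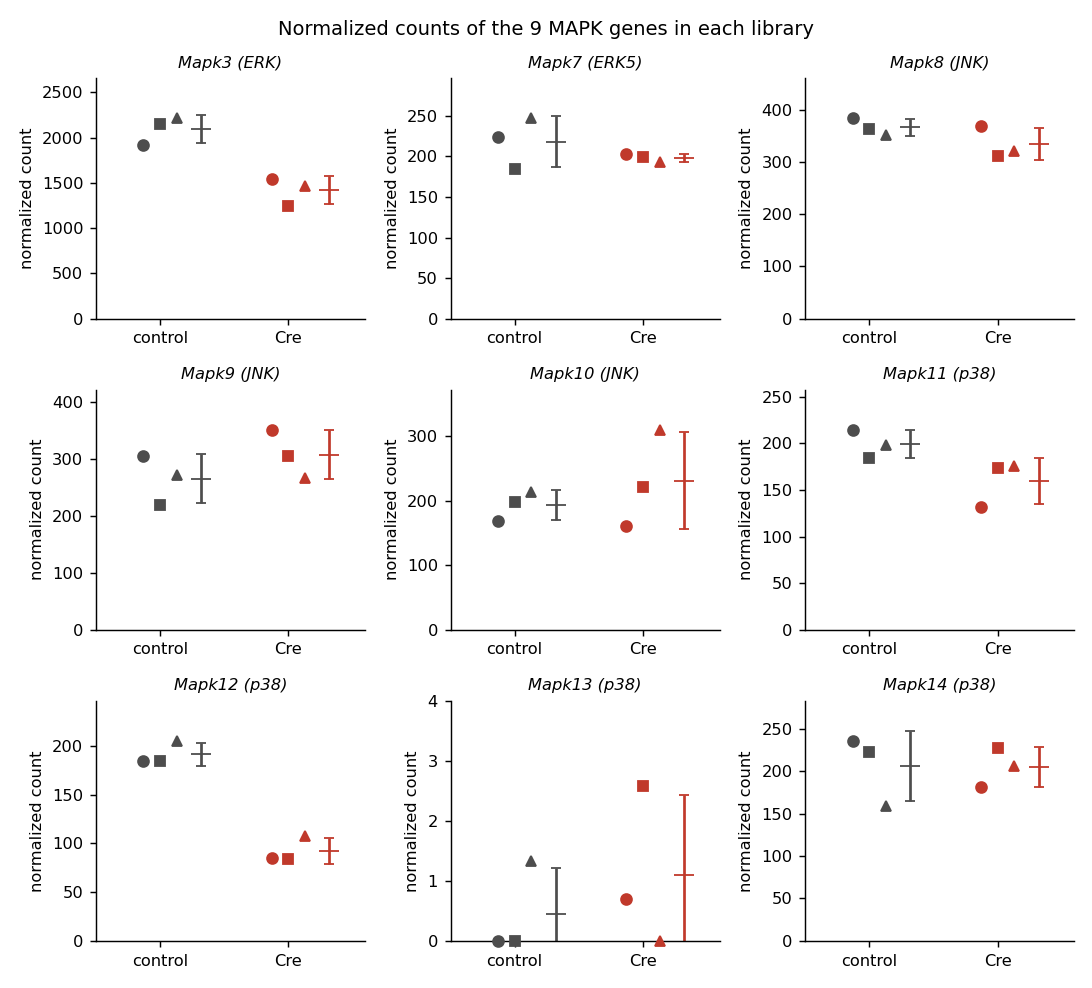
Normalized counts (y axis, from 0) of the 9 MAPK genes in the 3 control libraries (grey; circle, square and triangle for replicates 1, 1_1 and 2) and the 3 Cre-labelled libraries (red; replicates 2, 2_2 and 3), with the mean and SD to the right of each group. The groups are apart for *Mapk3*, *Mapk11* and *Mapk12* and overlap for the other 6 genes.

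*Mapk3* (ENSMUSG00000063065) encodes ERK1, the kinase that receives growth factor signals through Ras, Raf and the MAP2Ks *Map2k1* and *Map2k2*. The gene lies at chr7:126759626-126765816 in GRCm38.p6. Its normalized counts were 1923, 2152 and 2211 in control and 1545, 1244 and 1463 in the Cre-labelled libraries, in the same order. All 3 Cre libraries lay below all 3 controls, and the highest of them, replicate 2, was still under the lowest control, replicate 1. The means were 2095 ± 152 and 1417 ± 156 (SD, n = 3 each), a log2 fold change of -0.57 (SE 0.12, 95% interval -0.84 to -0.29, limma adjusted p = 0.0159). The call did not hold without every library: the adjusted p was 0.0707 without control replicate 1_1, 0.0843 without control replicate 2, 0.0809 without Cre replicate 2_2 and 0.054 with control replicates 1 and 1_1 averaged, and it ran from 0.00428 to 0.0843 over 17 alternatives with the fold change negative in each.

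*Mapk7* encodes ERK5, a long kinase with a C-terminal extension that is activated by the MAP2K *Map2k5*. Its normalized counts were 224, 184 and 247 in control and 203, 199 and 193 in the Cre-labelled libraries, in the replicate order used above. The Cre libraries lay within the control range. The log2 fold change was -0.13 (SE 0.16, 95% interval -0.48 to 0.23, adjusted p = 0.673), an interval that leaves room for a decrease as well as a small increase. The overlapping *Mfap4* stood at 126 to 176 normalized counts in control and 115 to 147 in the Cre-labelled libraries.

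The JNK genes encode kinases that phosphorylate JUN, JNK1 and JNK2 being widely expressed and JNK3 known mainly from neurons. *Mapk8* was at 384, 364 and 352 normalized counts in control and 370, 312 and 321 in the Cre-labelled libraries, with Cre replicate 2 inside the control range. Its log2 fold change was -0.14 (SE 0.14, 95% interval -0.43 to 0.16, adjusted p = 0.582). *Mapk9* was at 305, 219 and 271 in control and 351, 305 and 266 in the Cre-labelled libraries. The groups overlapped, since Cre replicate 3 lay below control replicates 1 and 2, and the log2 fold change was 0.22 (SE 0.17, 95% interval -0.16 to 0.59, adjusted p = 0.469).

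*Mapk10* had the widest spread of the tested members within a group. It stood at 168, 197 and 213 normalized counts in control and at 161, 221 and 310 in the Cre-labelled libraries, a coefficient of variation of 32.5% in the latter against 11.95% in control. Cre replicate 3 was the highest of all 6 libraries and Cre replicate 2 the lowest. The log2 fold change of 0.21 (SE 0.22, 95% interval -0.28 to 0.71, adjusted p = 0.608) became -0.03 without Cre replicate 3. Of the 6 tested neuron markers, 3 had positive and 3 negative fold changes, and 0 passed with limma, edgeR or DESeq2 (1 lower at an unadjusted p of 0.05 with each). Their summed count of 9316 to 9539 in control and 10155 to 11383 in the Cre-labelled libraries came mostly from *Map2*, and *Stmn2* was at 0 in every library. The part of neuron-like cells in the *Mapk10* values was not tested.

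The p38 genes encode kinases activated by *Map2k3* and *Map2k6*. The alpha form is the widely expressed one, and the gamma form is known for a C-terminal motif that binds PDZ domains and for its high level in muscle. *Mapk14* was at 236, 222 and 159 normalized counts in control and 181, 227 and 206 in the Cre-labelled libraries. The Cre libraries fell inside the control range, and the log2 fold change of 0.008 (SE 0.19, 95% interval -0.40 to 0.42, adjusted p = 0.985) does not exclude a change of that size either way. *Mapk11* was at 215, 184 and 199 in control and 132, 173 and 175 in the Cre-labelled libraries. Every Cre library was below every control here, with Cre replicate 2 the lowest, but the log2 fold change of -0.32 (SE 0.17, 95% interval -0.71 to 0.06) had an adjusted p of 0.275 and was not called.

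*Mapk12* (ENSMUSG00000022610) had the largest change of the 8 tested members. It was at 184, 184 and 205 normalized counts in control and 85.2, 84.4 and 107 in the Cre-labelled libraries, from 126 to 201 reads and 98 to 123 reads respectively. The highest Cre library, replicate 3, held less than the lowest control, and replicates within each group were close to each other. The means were 191 ± 12.1 and 92.3 ± 13.1 (SD, n = 3 each), a log2 fold change of -1.05 (SE 0.18, 95% interval -1.44 to -0.66, adjusted p = 0.00462). The adjusted p was 0.00468 with edgeR and 0.000101 with DESeq2 on the recovered reads, and at most 0.0351 over 17 alternatives, those without each library in turn included. *Mapk13*, the delta form, had 0, 0 and 1 reads in control and 1, 3 and 0 reads in the Cre-labelled libraries, at or under the floor of 3 reads in every library, so that no fold is given and no difference was detectable at this depth.

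**Figure D2:**
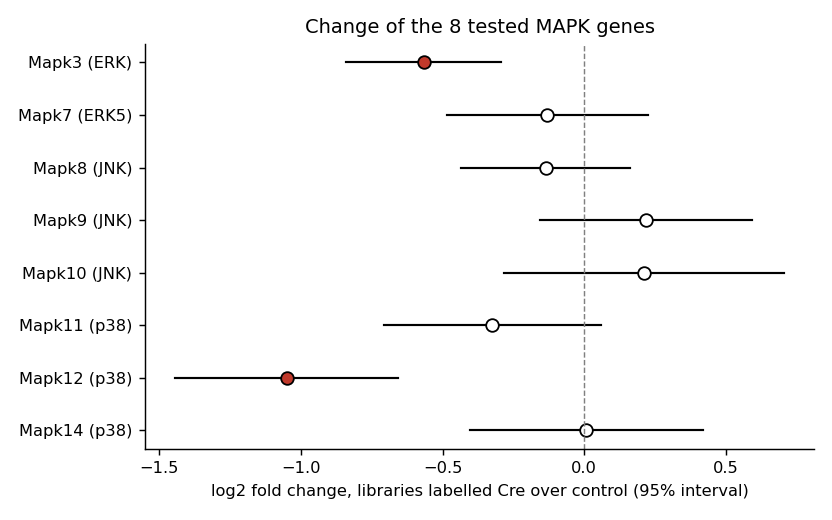
Log2 fold change of the Cre-labelled libraries over control (x axis) with its 95% interval from limma for the 8 tested MAPK genes (y axis, branch in brackets); filled points passed an adjusted p of 0.05. *Mapk12* (-1.05) and *Mapk3* (-0.57) are filled, and the intervals of the other 6 genes include 0.

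The paralogs were also set against each other within each library, which tests whether their changes differed. The log2 ratio of *Mapk12* to *Mapk14* was -0.35, -0.27 and 0.37 in control and -1.08, -1.42 and -0.93 in the Cre-labelled libraries, a difference of -1.06 with no overlap of the groups. *Mapk11* relative to *Mapk12* went the other way, from 0.22, 0.00 and -0.05 to 0.62, 1.03 and 0.70, a difference of 0.73 and again no overlap. In every Cre-labelled library *Mapk12* thus stood lower relative to *Mapk11* than in any control. Among the JNK genes, *Mapk8* relative to *Mapk9* was 0.33, 0.73 and 0.38 in control and 0.07, 0.03 and 0.27 in the Cre-labelled libraries, a difference of -0.35 with the groups apart. Each of these 3 ratios had an exact two-sided permutation p of 0.1, the smallest that 3 against 3 libraries can give, and 0.2 after adjustment over the 6 pairs compared. For the other 3 pairs the groups overlapped, with differences of -0.35 for *Mapk8* over *Mapk10*, 0.005 for *Mapk9* over *Mapk10* and -0.33 for *Mapk11* over *Mapk14* (exact permutation p = 0.5, 1 and 0.2). Leaving out 1 library moved these widely, for *Mapk8* over *Mapk10* from -0.66 (without Cre replicate 2) to -0.084 (without Cre replicate 3) and for *Mapk11* over *Mapk14* from -0.45 (without control replicate 1_1) to -0.16 (without control replicate 2).

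Levels were compared between genes only per length, as normalized counts per kilobase of the union of a gene's annotated exons. *Mapk3* was the highest member by far, at 969 ± 70.2 per kilobase in control and 655 ± 72.0 in the Cre-labelled libraries, and its mean was 9.56 times that of the next gene in control. In control the order went on with *Mapk12* (101.3 ± 6.42) and *Mapk11* (81.7 ± 6.24), each apart from its neighbours in every library. *Mapk7*, *Mapk14*, *Mapk8* and *Mapk9* followed at means of 49.7, 47.2, 39.6 and 39.1, and neighbours among these overlapped in range. *Mapk10* came below them at 17.3, and *Mapk13* last at 0.294.

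In the Cre-labelled libraries, *Mapk12* no longer stood apart as the highest p38 gene. Its level was 48.9 ± 6.93 per kilobase, under *Mapk11* at 65.6 ± 10.1 and followed by *Mapk14* (mean 46.9), *Mapk9* (45.3) and *Mapk7* (45.1), and each neighbouring pair of these 5 genes overlapped in range. *Mapk8* at 36.1, *Mapk10* at 20.7 and *Mapk13* at 0.722 were each apart from the gene next above by mean. *Mapk8* still overlapped *Mapk9*, as it reached 39.96 in Cre replicate 2 while *Mapk9* was at 39.2 in Cre replicate 3. This order depends on the length used, because exon unions ran from 1512 bases in *Mapk13* and 1889 in *Mapk12* to 11157 in *Mapk10*, much of it untranslated. Per kilobase of longest coding sequence, *Mapk8* (286 in control) and *Mapk9* (209) came next after *Mapk3* (1838), and *Mapk12* (174) was sixth in control. *Mapk3* was highest under each of the 3 lengths in both groups.

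**Figure D3:**
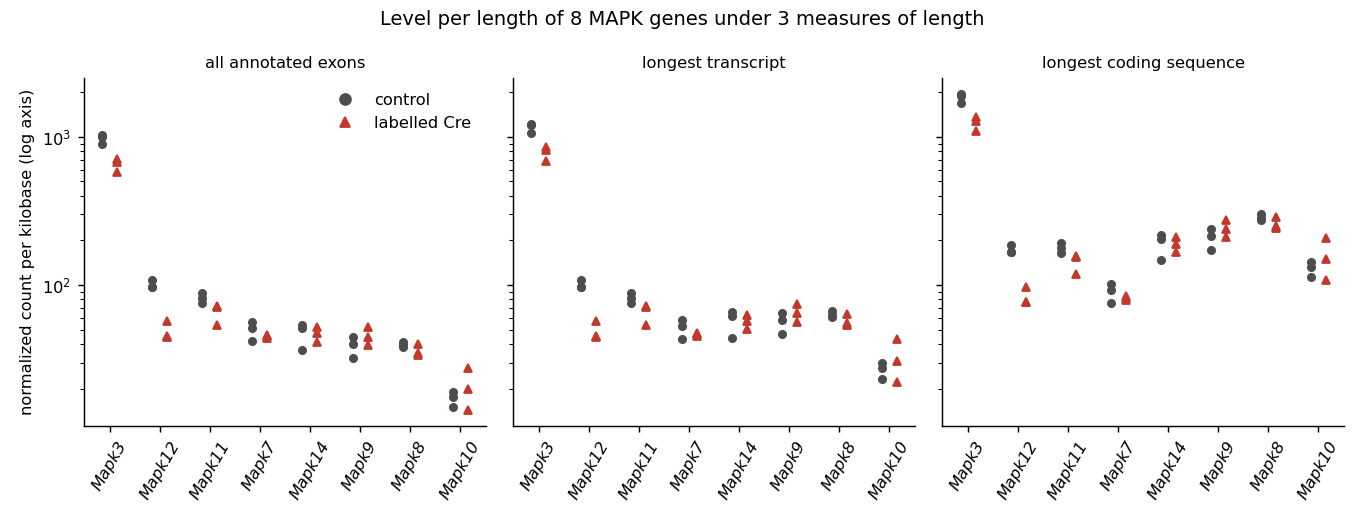
Level per length in normalized counts per kilobase (y axis, log scale) of 8 MAPK genes (x axis) in each control library (grey circles) and each library labelled Cre (red triangles), with the length taken as all annotated exons, the longest transcript or the longest coding sequence; *Mapk13*, with 0 reads in 3 of the 6 libraries, is left out. *Mapk3* lies above the other genes in each panel, while the order of the rest changes with the length.

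Summed per branch, the p38 level per kilobase was 240, 224 and 227 in control and 141, 169 and 176 in the Cre-labelled libraries, with all Cre libraries below all controls. The means were 230 ± 8.24 and 162 ± 18.6, a log2 difference of -0.51. Most of this came from *Mapk12*, whose mean went from 101.3 to 48.9, beside 81.7 to 65.6 for *Mapk11* and 47.2 to 46.9 for *Mapk14*. Per kilobase of longest coding sequence the log2 difference of the p38 sum was -0.38. The JNK sum was 101.4, 89.4 and 97.1 in control and 106, 98.4 and 102 in the Cre-labelled libraries, overlapping ranges with a log2 difference of 0.09. The ERK and ERK5 values are those of *Mapk3* and *Mapk7*, with log2 differences of -0.57 and -0.13. The exact two-sided permutation p was 0.1 for p38 and ERK, 0.2 for JNK and 0.4 for ERK5, which became 0.2, 0.267 and 0.4 after adjustment over the 4 branches.

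The makeup of the p38 message was apart between the groups, at the smallest p the exact test can give. *Mapk12* made up 40.7%, 43.5% and 47.8% of the p38 sum per kilobase in control and 32.0%, 26.4% and 32.3% in the Cre-labelled libraries. The share of *Mapk14* was 22.6%, 22.8% and 16.0% in control and 29.4%, 30.8% and 26.8% in the Cre-labelled libraries, and that of *Mapk11* was 36.7%, 33.7% and 35.8% against 38.3%, 41.9% and 40.9%. All Cre libraries lay below control for *Mapk12* and above it for both others. Per kilobase of longest coding sequence this still held for *Mapk12* and *Mapk14*, but the *Mapk11* share was 33.3%, 30.7% and 34.7% in control and 32.5%, 34.9% and 35.3% in the Cre-labelled libraries, overlapping ranges with a mean difference of 1.32 percentage points in place of 4.92. Since shares of 1 sum are bound to each other, these are not 3 separate results.

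Within the JNK sum the share of *Mapk8* was 40.9%, 44.0% and 39.2% in control and 37.7%, 34.2% and 34.2% in the Cre-labelled libraries, again with the groups apart. *Mapk9* went from a mean of 40.5% to 44.3% and *Mapk10* from 18.1% to 20.3%, with overlapping ranges. The difference for *Mapk9* was 3.79 percentage points, but 1.57 without Cre replicate 2, 1.62 without control replicate 1_1 and 6.68 without Cre replicate 3. The exact two-sided permutation p was 0.1 for *Mapk8*, *Mapk11*, *Mapk12* and *Mapk14* and 0.175 after adjustment over the 7 shares compared. It was 0.4 for *Mapk9* and 0.7 for *Mapk10* and *Mapk13*.

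**Figure D4:**
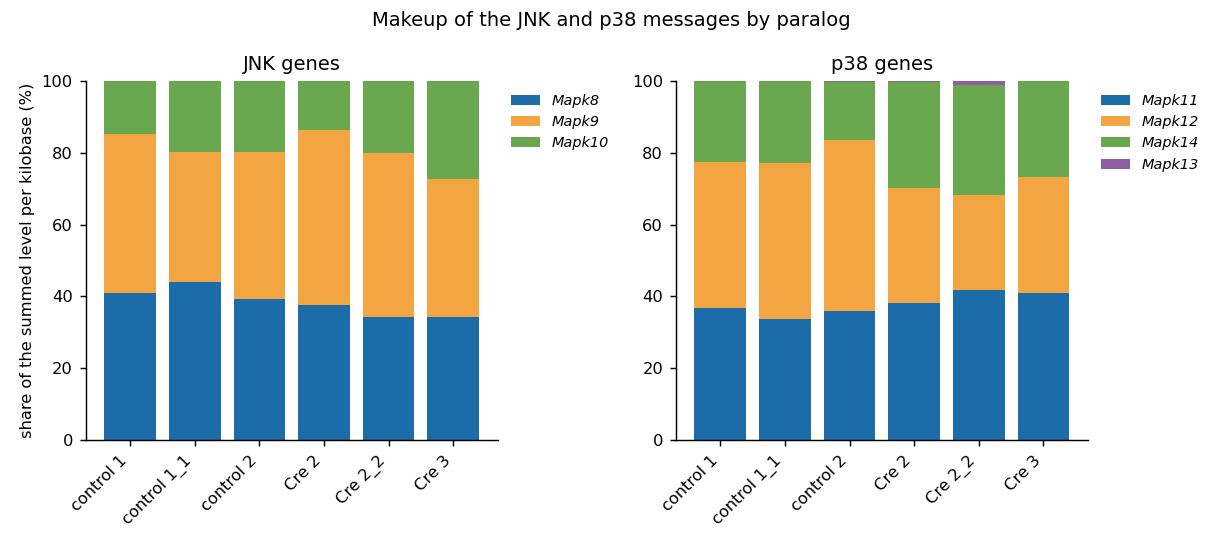
Share of each paralog in the summed level per kilobase (y axis, percent) of the JNK genes (left) and the p38 genes (right) in each of the 6 libraries (x axis). The *Mapk12* segment spans 40.7% to 47.8% in control and 26.4% to 32.3% in the Cre-labelled libraries.

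*Mapk11* and *Mapk12* are neighbours, at chr15:89142482-89149606 and chr15:89130584-89141577 in GRCm38.p6, both on the minus strand and 904 bases apart. *Mapk14* and *Mapk13* form another pair, at chr17:28691342-28748405 and chr17:28769286-28778704, both on the plus strand and 20880 bases apart. On chromosome 15 the gene next to *Mapk11*, *Plxnb2* (a plexin receptor for semaphorins), fell as well, from 1113, 1033 and 1028 to 770, 624 and 756 normalized counts (log2 fold change -0.57, SE 0.13, adjusted p = 0.0171). *Hdac10* (a deacetylase), next to *Mapk12* on the other side, had a log2 fold change of -0.27 (SE 0.24, adjusted p = 0.524). Of all tested genes 50.1% had a negative fold change and 5.22% were called lower, and no test of the region as a whole was made. Next to *Mapk3*, *Gdpd3* at a distance of 597 bases had a log2 fold change of 0.55 (SE 0.34, adjusted p = 0.343).

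RefSeq promoter windows of 300 bases (250 before and 50 after an annotated start, GRCm38.p6) were matched for 8 of the 9 members, in 12 windows. *Mapk3* had no window, so its promoter was not searched. Those of the neighbours *Mapk12* (chr15:89140654-89140953, minus strand) and *Mapk11* (chr15:89149557-89149856, minus strand) are shown because the first gene of this adjacent pair passed the test and the second did not, with the ratio between them given above. Capitals mark the GC box letters GGGCGG on either strand.
Mapk12: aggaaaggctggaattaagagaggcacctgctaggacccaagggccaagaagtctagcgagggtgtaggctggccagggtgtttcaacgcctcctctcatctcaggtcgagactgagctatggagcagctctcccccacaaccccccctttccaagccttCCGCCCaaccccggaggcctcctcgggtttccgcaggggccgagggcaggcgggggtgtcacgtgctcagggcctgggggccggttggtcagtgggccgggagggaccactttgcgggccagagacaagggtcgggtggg
Mapk11: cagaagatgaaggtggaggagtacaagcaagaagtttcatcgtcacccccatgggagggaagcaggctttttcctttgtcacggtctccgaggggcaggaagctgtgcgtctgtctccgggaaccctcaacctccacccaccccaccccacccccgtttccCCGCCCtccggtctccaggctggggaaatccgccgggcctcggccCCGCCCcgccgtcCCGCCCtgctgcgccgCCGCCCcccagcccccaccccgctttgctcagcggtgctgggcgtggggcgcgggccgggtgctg
The *Mapk12* window held 1 such match, 14 CpG dinucleotides and 65.33% G or C, and it lies within the annotated span of the gene. The *Mapk11* window held 4 matches, 24 CpG dinucleotides and 69.67% G or C. Over all 32851 promoter windows, 35.66% held the GC box letters and the medians were 7 CpG dinucleotides and 52.67% G or C. Neither window held the letters GCGGGAA (E2F), CCGGAAG (ETS), CCAAT or TATAAA on either strand, which were found in 4.6%, 8.858%, 37.41% and 13.62% of all windows. Among the 12 windows, which leave out *Mapk3*, the only one with the E2F letters was that of *Mapk13*, with 2 matches.

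Genes around the kinases were taken from a list of 48 MAP2Ks, scaffolds, phosphatases and substrates, of which 47 were tested. In the Cre-labelled libraries 2 of them were higher and 2 lower, 43 did not pass, and the median log2 fold change was 0.008. The 8.51% called is near the 9.96% of all tested genes, so the number called is not a result about this list. Of the 7 MAP2Ks 0 passed with limma, edgeR or DESeq2 (2 lower at an unadjusted p of 0.05 with each), with log2 fold changes from -0.44 to 0.33. The smallest p among them was that of *Map2k3*, an activator of p38, at 413, 404 and 443 normalized counts in control and 345, 313 and 273 in the Cre-labelled libraries (log2 fold change -0.44, SE 0.14, adjusted p = 0.0712), with the groups apart. The other p38 activator, *Map2k6*, had a log2 fold change of -0.06, the ERK activators *Map2k1* and *Map2k2* had 0.18 and -0.29, the JNK activators *Map2k4* and *Map2k7* had 0.18 and 0.09, and the ERK5 activator *Map2k5* had 0.33.

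Of the 8 tested scaffolds and adaptors only *Mapk8ip1* (JIP1, a scaffold that gathers the JNK chain) passed the test. It fell from 386, 385 and 348 to 240, 232 and 259 normalized counts, with every Cre library below every control (log2 fold change -0.61, SE 0.14, adjusted p = 0.0175). The call was lost without any 1 of the control replicates 1, 1_1 and 2 or Cre replicate 2_2 and with control replicates 1 and 1_1 averaged, with adjusted p up to 0.1005 over 17 alternatives. Of the 10 phosphatases 0 passed with limma or edgeR and 1, *Dusp9*, passed as lower with DESeq2 (at an unadjusted p of 0.05, 2 were lower with each tool, and 1 was higher with edgeR and 0 with limma or DESeq2). Their fold changes were negative for 7 and positive for 3, with a median of -0.36. By limma the smallest p was that of *Dusp9*, a phosphatase that prefers ERK, at 27.5, 11.7 and 28.0 normalized counts in control and 5.54, 10.3 and 1.79 in the Cre-labelled libraries (log2 fold change -1.89, SE 0.60, adjusted p = 0.0688). The value in Cre replicate 3, where 1 read is worth 0.895, lies under the floor of 3 reads. The *Dusp9* fold change ran from -2.36 to -1.35 when each library was left out, the latter without Cre replicate 3.

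Of the 11 kinases that MAPKs phosphorylate 0 passed with limma, edgeR or DESeq2 (1 lower at an unadjusted p of 0.05 with limma, 0 with the others). By limma the smallest p was that of *Rps6ka2*, an RSK kinase downstream of ERK (log2 fold change -1.10, SE 0.50, adjusted p = 0.192). This gene was low, at 21.1, 27.8 and 20.0 normalized counts in control and 19.4, 11.2 and 4.48 in the Cre-labelled libraries. Its fold change was -0.59 without Cre replicate 3 and -1.54 without Cre replicate 2. Of the 11 transcription factors that MAPKs phosphorylate, 2 rose and 1 fell, beside 9.96% of all tested genes called in either direction. *Ets1* rose from 590, 611 and 551 to 1500, 1145 and 1440 normalized counts (log2 fold change 1.21, SE 0.13, adjusted p = 0.000384), and its relative *Ets2* fell from 338, 391 and 289 to 135, 212 and 206 (log2 fold change -0.89, SE 0.20, adjusted p = 0.0175). The groups were apart for both, in opposite directions, and both are targets of ERK. *Mef2c*, a target of p38 and ERK5, rose from 496, 610 and 565 to 666, 924 and 1296 (log2 fold change 0.74, SE 0.21, adjusted p = 0.0454). The *Ets1* call held under each of 17 alternatives, while that of *Ets2* was lost without control replicate 1 or 1_1 and that of *Mef2c* without any 1 of the control replicates or Cre replicates 2_2 and 3, and both with control replicates 1 and 1_1 averaged.

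**Figure D5:**
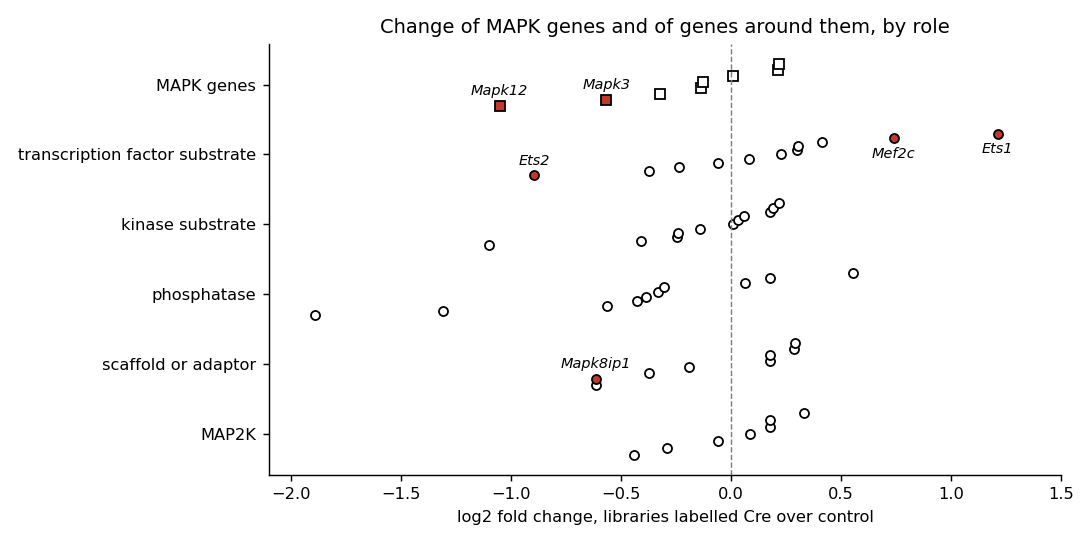
Log2 fold change of the Cre-labelled libraries over control (x axis) for the 8 tested MAPK genes (squares) and 47 tested genes around them (circles), grouped by role (y axis); filled symbols passed an adjusted p of 0.05 and are named. Filled symbols are *Mapk12*, *Mapk3*, *Ets2* and *Mapk8ip1* on the lower side and *Mef2c* and *Ets1* on the higher side.

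The members' patterns over the 6 libraries were compared with those of all tested genes by Pearson's correlation of log2 values, as a description. The 6 points fall into the 2 groups, which carry much of each value, and depth differs between libraries. *Mapk3* was most like *Cep112* (r = 0.997), *Dlg4* (0.995) and *Ptma* (0.994), among 179 genes above 0.95. *Mapk12* was most like *Polr2e* (0.998), *Tmem173* (0.996) and *Celsr2* (0.996), among 306 genes above 0.95. *Mapk3* and *Mapk12* had r = 0.937 with each other.

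Some markers of astrocytes and of the oligodendrocyte lineage differed between the groups, as *Mapk3* and *Mapk12* did. Summed astrocyte markers ran from 3111 to 3411 normalized counts in control and from 5590 to 6568 in the Cre-labelled libraries, with 3 of 6 tested markers higher (*Aqp4*, *S100b* and *Slc1a2*) and 0 lower with limma, edgeR or DESeq2. Of all 14840 tested genes 704 were called higher by limma. *Gfap*, also listed, was too low to be tested, at means of 1.82 in control and 4.73 in the Cre-labelled libraries. *S100b* alone went from a mean of 238 to 2064 normalized counts. *Aldh1l1* went the other way, from 17.3 to 5.35 with the groups apart (log2 fold change -1.65, SE 0.51, adjusted p = 0.065), the 1 marker of this list that was lower at an unadjusted p of 0.05 with each tool. Summed oligodendrocyte lineage markers ran from 12488 to 14404 and from 17236 to 19639, with 3 of 6 tested markers higher (*Olig2*, *Pdgfra* and *Cspg4*), while *Mog* and *Sox10* had means of 1.46 and 2.60 normalized counts in control. Their part in the fall of *Mapk3* and *Mapk12* was not tested. Microglial markers summed to 162 to 205 in control and 166 to 273 in the Cre-labelled libraries, nearly all of it *Csf1r*, and *Tmem119* was at 0 in every library. Endothelial and mesenchymal markers summed to at most 10.7, with *Cldn5*, *Cdh5* and *Pdgfrb* at 0 in every library.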

How the data were processed

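RNA-seq of 6 libraries of mouse NSCs was analysed, 3 control and 3 labelled Cre, grouped by the sample labels. Libraries were made with the TruSeq RNA v2 kit. The submitters' processing notes name STAR 2.7, mm10 and DESeq2, while the study's methods name TopHat with mm9 and mm10. The read counter, strand setting and annotation were not given in the sources used here. The authors deposited normalized counts, a signal made by dividing each read count by 1 size factor per library. Their table also holds the authors' own comparison (log2 fold changes, standard errors, test scores, p-values and adjusted p-values), which was not used. Of the 53379 genes, 1 was dropped for a missing number.

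What 1 read is worth was found from the low values of each library, and 100% of values came out as whole reads (tolerance 0.01), which gave 7510615 to 14828100 reads per library. Counts at or under 3 reads were treated as the floor, which covers counting error only. limma 3.58.1 (R 4.3.3) with a trend was run on log2(normalized count + 1) for 14840 genes with a mean of at least 10, with Benjamini-Hochberg adjustment over all of them and a threshold of 0.05. Fold changes on this scale understate changes of low genes. Alternatives were edgeR 4.0.16 and DESeq2 1.42.0 on recovered reads, pseudocounts of 0.5 and 5, other filters and scalings, averaging of libraries with like numbers, an adjusted p under 0.1, and leaving out each library. The alternatives for the 48 genes around the kinases were added after the data were seen. edgeR called 1483 genes and DESeq2 1755, beside 1478 with limma. Sums, shares and ratios were compared with exact two-sided permutation tests (scipy 1.17.1). Of these tests only limma was tried on simulated data.

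Lengths and coding sequences came from GENCODE M1, promoters and positions from RefSeq tables of GRCm38.p6. Coding sequences were aligned with Biopython 1.88, and figures drawn with matplotlib 3.10.9. Members and lists were chosen with earlier results of these data known. Genes named outside the members were, in each role, those past the threshold or else the one with the smallest p, the 3 genes most correlated with each called member, the neighbours on the chromosome, and the markers of other cell types. The other MAP2Ks, the neighbours and the markers singled out by name were named after their values were seen.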

Additional observations from a re-analysis of the deposited data

How the results depend on the processing

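Of 462 values recomputed for 36 results under 19 settings, 416 stayed as reported, and so did 23 results under every setting run for them. For single genes this means the same direction and side of the threshold, for counts of genes a value within 1.5 times the reported one, and for sums, shares and ratios, whose exact tests cannot pass, the same direction only. The *Mapk12* decrease was called in each setting run for it. Some of these values could not come out otherwise. The setting of an adjusted p under 0.1 uses the main fit, so no call could be lost, and it is 1 of the 17 alternatives given for single genes. The filters cannot move a gene's fold change. Another length cannot move the log2 difference of ERK or ERK5, each of which is 1 gene. The log2 fold change of *Mapk3* was -0.59 and no longer called with control replicates 1 and 1_1 averaged, and -0.63 to -0.48 when each library was left out in turn. That of *Mapk10* ran from -0.026 (without Cre replicate 3) to 0.45 when each library was left out. That of *Mapk14* was -0.011 with edgeR and -0.0091 with DESeq2, and -0.17 to 0.12 when each library was left out. The number of members called lower was 1 with control replicates averaged and 1 to 2 with each library left out. Among the 48 genes around the kinases, 0 were called lower and 1 higher with control replicates averaged, 4 were called lower at an adjusted p under 0.1, and 0 to 3 were called lower and 1 to 3 higher when each library was left out. Per longest coding sequence the change in the p38 share of *Mapk11* was 1.32 percentage points. The change in the JNK share of *Mapk10* ran from -1.26 to 5.61 percentage points and the change in *Mapk9* over *Mapk10* from -0.33 to 0.34, that in *Mapk8* over *Mapk9* from -0.43 to -0.23 (without control replicate 1_1) on the log2 scale when each library was left out. Some settings also hold fewer libraries, and the cause of these differences was not tested. Over all genes 1478 calls became 660 with control replicates averaged, 2380 at an adjusted p under 0.1, and 558 (without control replicate 1) to 2396 (without Cre replicate 2) when each library was left out. No paired analysis was possible because the groups share 1 replicate number. Exact permutation tests of 3 against 3 libraries cannot go below 0.1, and *Mapk13*, at 3 reads or fewer per library, is beyond what this depth can compare.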
